A study of Mus musculus with 4 samples.

Results

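Tip-like endothelial cells (ECs) that expressed apelin were followed in droplet-based single-cell RNA-seq (10x Genomics 3′ chemistry) of the metaphysis of femur and tibia. The cells came from 12-week-old mice. The study kept its mice on a C57BL/6 background and used both sexes, and the sex behind each library was not stated. The 2 mutant libraries (*Lats2*iΔEC) were from mice with floxed *Lats2* alleles and the tamoxifen-inducible recombinase Cre-ERT2 under the *Cdh5* promoter, which is active in ECs, and the 2 control libraries were from Cre-negative littermates. By the study's methods both genotypes received tamoxifen, whereas the GEO label of the controls reads untreated; whether animals were pooled was not stated. Bone was digested with collagenase and depleted of hematopoietic lineages and then, with beads, of CD45 and of CD117, the protein product of *Kit*.

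A barcode was kept with at least 1000 unique molecular identifiers (UMIs), at least 800 genes, under 15% mitochondrial and under 5% hemoglobin UMIs, which left 24739 barcodes. Of these, 2904 were called endothelial from at least 1 UMI of *Cdh5*, at least 3 of *Cdh5*, *Pecam1* and *Egfl7* together and none of *Ptprc*. A tip-like cell was an endothelial barcode with at least 1 UMI of *Apln*, none of the sinusoidal gene *Stab2* and at most 1 of the arterial genes *Sema3g*, *Stmn2* and *Gja5* together. The cells were thus chosen by measured counts of these genes, and what the rule used is given as a description. It found 285 cells, namely 94 and 136 in the mutant libraries and 32 and 23 in the control libraries. The 801 endothelial barcodes without *Apln* that met the same limits on *Stab2* and the arterial genes (154, 178, 215 and 254) served as the reference ECs. Throughout, sets of 4 values are in the order mutant replicate 1, mutant replicate 2, control replicate 1, control replicate 2.

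Apelin is a small secreted peptide that acts on the receptor APLNR of neighbouring ECs. In growing vessels it is made mainly by the tip cells that lead a sprout, while stalk cells behind them carry the receptor. Tip cells are also known for angiopoietin 2, which opposes TIE2 (*Tek*) signalling and loosens vessel walls, for the secreted proteoglycan *Esm1* and for the chemokine receptor *Cxcr4*. LATS2 is a kinase of the Hippo pathway that holds back the co-activators YAP1 and TAZ (*Wwtr1*), which work with TEAD factors at genes such as *Ccn1* and *Ccn2*.

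*Apln* lies on the minus strand of the X chromosome at chrX:47114019-47123775 (GRCm39). Among the other genes that mark these cells, *Angpt2* lies at chr8:18739202-18791603, *Kit* at chr5:75735576-75817404, *Nox4* at chr7:86895304-87047918 and *Edn1* at chr13:42446301-42461466. The 250 bases before the start of *Apln* are shown because its transcript chose the cells. Given 5′ to 3′ on the strand of the gene, with the start of the GENCODE annotation, they read as follows. No annotated exon falls in this window.
Apln, chrX:47123776-47124025, minus strand: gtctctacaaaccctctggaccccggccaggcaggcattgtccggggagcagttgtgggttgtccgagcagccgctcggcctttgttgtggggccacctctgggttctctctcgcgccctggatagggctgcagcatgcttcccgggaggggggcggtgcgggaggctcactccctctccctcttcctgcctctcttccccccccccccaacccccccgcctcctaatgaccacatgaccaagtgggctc
The window held 0 matches to either of the motifs searched in promoters here, the core of the hypoxia response element (ACGTG or GCGTG) and the TEAD element (GGAATG), both strands included.

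The tip-like cells made up a larger part of the mutant endothelium. They were 17.2% (95% confidence interval 14.1 to 20.6) and 20% (17.1 to 23.2) of endothelial barcodes in the mutant libraries, and 3.80% (2.62 to 5.33) and 2.75% (1.75 to 4.10) in the control libraries. Both mutant libraries lay above both controls, and none of their intervals met. The means were 18.6% ± 2.01 (SD, n = 2) and 3.28% ± 0.743 (SD, n = 2), a difference of 15.3 percentage points, and the two-sided exact permutation test gave p = 0.333, the smallest that 2 against 2 libraries allow. The intervals are exact Clopper-Pearson intervals and cover counting error only.

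Depth differed between cells and libraries, so the share was recomputed at equal depth. With every endothelial barcode thinned to 2000 UMIs, and 16, 26, 33 and 50 shallower barcodes left out, the shares were 13.9%, 15.1%, 2.72% and 2.17%. Among the barcodes within the limits on *Stab2* and the arterial genes alone, 37.9%, 43.3%, 13.0% and 8.30% held *Apln*. With at least 2 UMIs of *Apln* required, the shares were 13.5%, 16%, 1.90% and 1.20%. The mutant libraries were higher in each of these versions, and the mutant mean was 3.82 to 9.53 times the control mean. Without the limits on *Stab2* and the arterial genes, means of 27.6% of mutant and 8.17% of control endothelial barcodes held *Apln*. That gap was smaller in proportion than in the versions above.

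**Figure D1:**
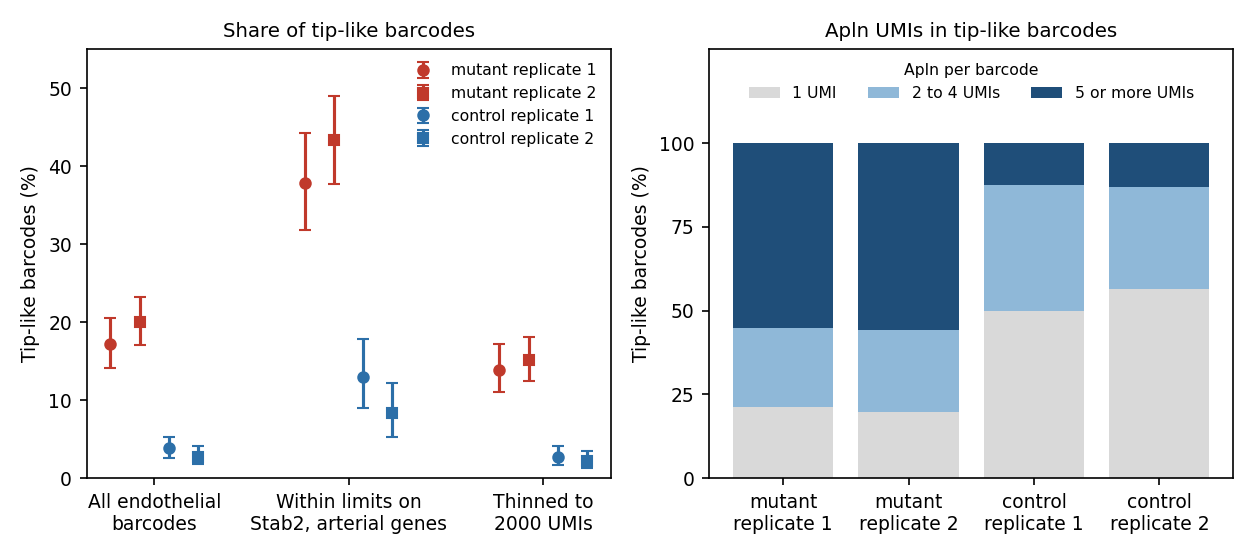
Share of tip-like cells in each library. Left, percent of tip-like cells (y axis) among all endothelial barcodes, among those within the limits on *Stab2* and arterial genes, and after thinning to 2000 UMIs, with points for the 4 libraries and bars for exact 95% intervals. Right, stacked bars of the percent of tip-like cells with 1, 2 to 4 and at least 5 UMIs of *Apln*. Both mutant libraries sit above both controls at left, and at right at least 5 UMIs were found in 55.3% and 55.9% of mutant and 12.5% and 13.0% of control cells.

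The rule chose on single UMIs, and the 2 genotypes filled it differently. Of the tip-like cells, 21.3% and 19.9% in mutants and 50% and 56.5% in controls held exactly 1 *Apln* UMI, while the medians were 6, 6.5, 1.5 and 1 and the highest cells held 219, 92, 34 and 62. In control replicate 2, 59.6% of all *Apln* UMIs came from a single barcode, and in control replicate 1 33.7%. Just inside the arterial limit, 5, 10, 5 and 4 tip-like cells held exactly 1 arterial UMI, and just outside it 5, 4, 3 and 2 *Apln* cells held 2. Another 9, 9, 3 and 6 *Apln* cells were left out with exactly 1 *Stab2* UMI. In all, the limits left out 49 of 143, 62 of 198, 42 of 74 and 40 of 63 endothelial barcodes with *Apln*, a larger part in controls. Of those left out, 38, 51, 35 and 35 held *Stab2*.

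The cells were well covered. Tip-like cells had median totals of 9299, 10376, 9494 and 6174 UMIs, against 5559, 5899, 4387 and 4181 in the reference ECs, and medians of 3505, 3593, 3503 and 2938 genes. They held median mitochondrial shares of 4.67%, 5.07%, 4.67% and 3.27%. Summed per library, tip-like cells gave 1422040, 1739270, 311111 and 193026 UMIs, so the control sums rest on far fewer reads. A doublet caller marked 12, 16, 4 and 3 of them. The libraries shared 6 to 16 kept barcodes per pair, of which 1 was tip-like. In all, the libraries held 69636600, 78953400, 83453500 and 85899100 UMIs.

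Cre-ERT2 and *Lats2* were examined first as a check of the genotypes. Cre-ERT2 transcript was found in 53 of 94 and 62 of 136 mutant tip-like cells and in 2 of 32 and 1 of 23 control cells. The controls were Cre-negative, and the few control cells with Cre-ERT2 UMIs (5 endothelial barcodes in all) are left in. Of the named genes called between genotypes in tip-like cells, *Dcn* alone lost its call without them. *Lats2* (chr14:57926960-57995845) stood at 84.4, 91.8, 128.2 and 80.3 CPM (counts scaled to the same total in each sum) in tip-like cells. These values overlapped between genotypes (log2 fold change, mutant over control, −0.23 ± 0.23 SE, adjusted p = 0.597, quasi-likelihood test of edgeR, Benjamini-Hochberg). In the reference ECs *Lats2* was lower in both mutant libraries (82.3 and 78.0 against 127 and 111 CPM; log2 fold change −0.51, adjusted p = 0.0353), short of the 2-fold used for calls. Counting ran over the whole gene, so transcripts of a recombined allele can still be counted, and the check speaks to the transcript only. The related kinase *Lats1* stood at 23.2, 28.7, 45 and 57.0 CPM (log2 fold change −0.84, adjusted p = 0.158). *Yap1*, at 47.8, 57.5, 54.6 and 41.4 CPM, and *Wwtr1*, at 480, 560, 662 and 554 CPM, overlapped between genotypes in tip-like cells.

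The genes that accompany *Apln* were next examined in the same cells. *Angpt2* was detected in 69.1% and 72.1% of mutant and 34.4% and 17.4% of control tip-like cells, against 28.6%, 26.4%, 9.30% and 5.12% of reference ECs. *Kit*, the receptor of stem cell factor, was found in 58.5%, 52.2%, 18.8% and 21.7% of tip-like cells and in 7.79%, 6.74%, 9.30% and 8.66% of reference ECs. *Nox4*, an NADPH oxidase that makes hydrogen peroxide, was found in 58.5%, 60.3%, 15.6% and 13.0% of tip-like cells against 4.55%, 10.1%, 4.65% and 3.94% of reference ECs. Every library had a larger share of tip-like than of reference cells with each of these transcripts. The same held for *Edn1*, the precursor of the vasoconstrictor endothelin 1, at 59.6%, 57.4%, 31.2% and 17.4% against 36.4%, 32.0%, 14.0% and 11.8%. At least 2 of the 4 transcripts occurred together in 69.1%, 68.4%, 28.1% and 21.7% of tip-like cells and in 16.9%, 19.1%, 6.05% and 2.76% of reference ECs. Tip-like cells were also deeper than reference ECs, and the part of depth in these shares was not tested.

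In the mutant libraries the shares also rose with the count of *Apln*, the value that chose the cells, and so did depth, with medians of 6724 and 8828 UMIs at 1 *Apln* UMI and 13458 and 12773 at 5 or more. The part of depth was not tested. *Angpt2* was found in 40.0% and 33.3% of the mutant tip-like cells with 1 *Apln* UMI and in 78.8% and 88.2% of those with at least 5. For *Kit* the shares went from 25% and 14.8% to 75% and 72.4%, and for *Nox4* from 15% and 18.5% to 73.1% and 81.6%. All 4 transcripts were present in 33 and 46 mutant cells and in 1 cell of each control library, and 14 and 16 of the mutant cells had none of them. Of the control cells, 12 of 32 and 14 of 23 held *Apln* with none of them. *Esm1* was found in 54.3%, 57.4%, 12.5% and 13.0% of tip-like cells and in 8.44%, 6.74%, 8.37% and 11.4% of reference ECs. The receptor *Aplnr*, which stalk cells carry, was found in 41.5%, 42.6%, 71.9% and 82.6% against 27.9%, 34.8%, 51.6% and 45.3%. The name tip-like thus stands for the rule, and most control cells held few of these markers.

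**Figure D2:**
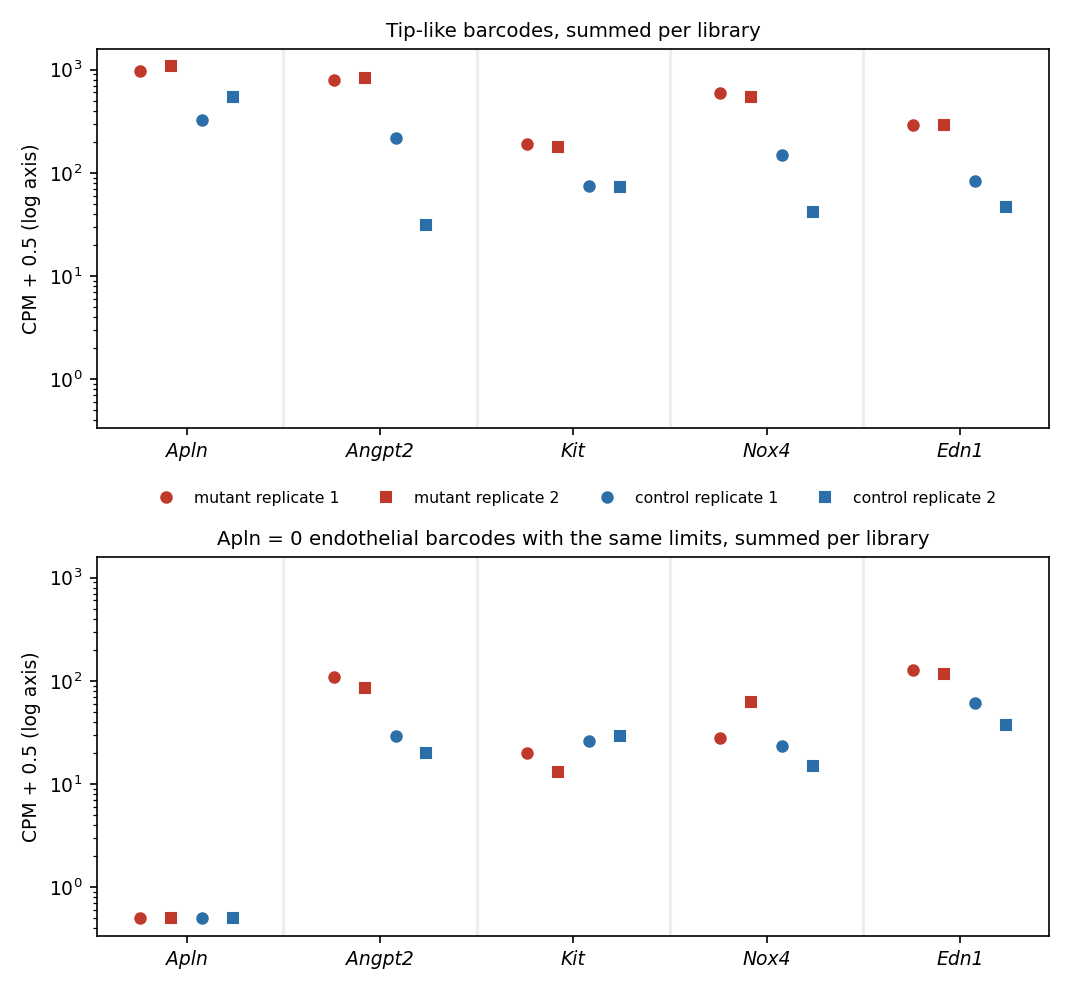
Levels of *Apln*, *Angpt2*, *Kit*, *Nox4* and *Edn1* per library. The y axis is CPM plus 0.5 on a log scale, with tip-like cells above and reference ECs below, and each point is 1 of the 4 libraries. In tip-like cells both mutant libraries lie above both controls for all 5 genes; *Apln* was used to choose the cells and is at 0 in the reference by definition.

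On summed counts, all 4 accompanying genes were higher in mutant than in control tip-like cells. *Angpt2* stood at 799, 834, 215 and 31.1 CPM, *Kit* at 189, 177, 73.9 and 72.5 CPM, *Nox4* at 599, 537, 148 and 41.4 CPM and *Edn1* at 293, 287, 83.6 and 46.6 CPM. No mutant library overlapped a control. The log2 fold changes were 2.7 ± 0.46 (SE) for *Angpt2* (adjusted p = 0.00498), 1.40 ± 0.20 for *Kit* (adjusted p = 0.00194), 2.57 ± 0.35 for *Nox4* (adjusted p = 0.00127) and 2.17 ± 0.23 for *Edn1* (adjusted p = 3.88e-04), all by edgeR's quasi-likelihood test. Among cells with at least 2 *Apln* UMIs the adjusted p was 0.0539 for *Angpt2* and 0.133 for *Kit*, and with DESeq2 it was 0.169 for *Angpt2*. In such sums, fewer cells that make a transcript and less transcript per cell cannot be told apart, and the p-values measure only the spread between these libraries. *Apln* itself stood at 966, 1072, 325 and 539 CPM and was not tested.

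The control levels rested on few cells. The single barcode with the most counts gave 56.7% and 33.3% of *Angpt2*, 56.5% and 35.7% of *Kit* and 80.4% and 50% of *Nox4* in control replicates 1 and 2. Since the preparation removed cells with KIT on their surface, the level of *Kit* is that of the ECs left after it. Among markers of mast cells and other hematopoietic cells, the mast cell gene *Cpa3* was at 0 in the tip-like cells of all 4 libraries. The hematopoietic gene *Gata1* was found in 2.13%, 0.735%, 3.125% and 4.35% of them. *Gata2*, a transcription factor shared by ECs and mast cells, stood at 26.7, 25.9, 41.8 and 46.6 CPM, and *Pf4* of megakaryocytes at 3.52, 5.75, 28.9 and 5.18 CPM. Of the 9 hematopoietic and mast cell markers, 3 to 4 per library had a count, and they summed to 541 to 723 CPM. At least 3 UMIs of this list were found in 76.6%, 73.5%, 81.25% and 78.3% of tip-like cells. In reference ECs the shares were 55.2%, 55.1%, 47.0% and 45.3%. The sum was thus spread over many ECs and came from few of the markers. *Cpa3*, *Gata1* and *Gata2* gave at most a small part of it. By itself it does not show hematopoietic cells among the tip-like cells.

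In the reference ECs *Angpt2* (107, 84.7, 28.5 and 19.3 CPM; log2 fold change 2.07, adjusted p = 8.44e-04) and *Edn1* (127, 115, 60.7 and 36.5 CPM, log2 fold change 1.38, adjusted p = 0.00331) were also higher in mutants. *Kit* was not, at 19.5, 12.7, 25.8 and 28.6 CPM, and the difference between its genotype effects in tip-like and reference ECs was 2.10 on the log2 scale (adjusted p = 0.0296, edgeR's test of class by genotype). It passed this threshold in 6 of 13 alternatives. For *Angpt2* (0.85, adjusted p = 0.485), *Nox4* (1.37, adjusted p = 0.29) and *Edn1* (0.87, adjusted p = 0.201) this difference missed the threshold, which does not show that the effects were equal.

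Across the transcriptome of tip-like cells, 7291 genes were tested between genotypes, leaving out the genes of the rule. Of these, 175 (2.40%) were at least 2-fold higher in mutants (adjusted p not above 0.05) and 252 (3.46%) were lower, 5.86% in all. For every gene called, both mutant libraries lay on one side of both controls. Where such a separation is given for a called gene, it adds no support to the call. A gene was tested when at least 20% of the tip-like cells of either genotype held it, so a gene could enter through the genotype in which it is high, and counts below are over the genes that passed and not over whole lists. Of 81 named genes called, 38 reached this share in 1 genotype alone, 20 higher ones in mutants and 18 lower ones in controls. The median log2 fold change of all genes tested was 0.00. Without control replicate 1 the counts were 119 higher and 125 lower. Among reference ECs 127 (2.55%) of 4978 genes were called higher and 126 (2.53%) lower, 5.08% in all. Of the 175 higher genes, 113 could also be tested in the reference ECs and 27 were called higher there, and of the 252 lower genes 203 could be tested and 58 were called lower.

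Of 20 genes that respond to low oxygen or drive glycolysis 17 were tested, 9 rose, none fell and 8 were not called, with a median log2 fold change of 1.58. Of the 9, *Adm*, *Bnip3*, *Egln3* and *Slc16a3* reached the 20% of cells needed for a test in mutants alone (9.09%, 9.09%, 3.64% and 0% of control cells), so they could enter only where they are high. *Pgk1*, a kinase of glycolysis, stood at 354, 303, 84.6 and 46.6 CPM (log2 fold change 2.35, adjusted p = 3.59e-04). *Bnip3*, which marks mitochondria for removal, stood at 87.9, 93.9, 16.1 and 10.4 CPM (log2 fold change 2.79, adjusted p = 0.00115, and 0.0538 with doublets left out). *Egln3*, an oxygen-sensing hydroxylase that hypoxia induces, stood at 115, 105, 9.64 and 0 CPM (log2 fold change 4.27, adjusted p = 5.79e-04). In each case both mutant libraries lay above both controls.

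The lactate exporter *Slc16a3* was found only in mutant tip-like cells, at 59.8 and 50.6 CPM against 0 in both controls, at least 9.27-fold higher by a floor of 3 counts over the controls (adjusted p = 0.00179). *Eno1* (550, 492, 158 and 181 CPM, log2 fold change 1.72, adjusted p = 3.99e-04) and *Ldha* (508, 439, 174 and 202 CPM, log2 fold change 1.43, adjusted p = 0.00119), enzymes at the end of glycolysis, rose by less. *Slc2a1*, the main glucose transporter of ECs, rose from 35.4 and 25.9 to 93.5 and 85.1 CPM (log2 fold change 1.58, adjusted p = 0.00918). *Adm* and *Pfkp* were the remaining members that rose. *Ndrg1*, at 275, 335, 264 and 207 CPM, missed the threshold (0.44, adjusted p = 0.173).

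In the reference ECs 11 of these 20 genes were tested and 2 rose, *Pgk1* (134, 122, 47.2 and 45.3 CPM, log2 fold change 1.54) and *Eno1* (216, 233, 98.3 and 102 CPM, log2 fold change 1.24), with a median of 0.72. The difference between tip-like and reference ECs passed the threshold for none of the 17 genes tested for it, against 0.704% of all genes. A list this short cannot be set apart from that share. The RNA outside cells moved the same way: near-empty barcodes (at most 100 UMIs) held *Pgk1* at 388, 385, 90.3 and 106 CPM, *Bnip3* at 199, 208, 24.3 and 24.7 CPM and *Egln3* at 33.5, 42.7, 5.32 and 2.68 CPM. Free RNA was estimated at 1.03%, 1.30%, 1.31% and 2.18% of the UMIs of tip-like cells, and with it subtracted the log2 fold changes were 2.34 for *Pgk1*, 2.76 for *Bnip3* and 4.28 for *Egln3* (adjusted p = 4.26e-04, 0.00132 and 6.74e-04 by edgeR).

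The promoters of members that rose are shown to place the hypoxia core in them. In the 250 bases before the start, the letters ACGTG or GCGTG on either strand (capitals) occurred at 150 and 131 bases before the start of *Pgk1* and at 216 bases before the start of *Egln3*.
Pgk1, chrX:105230456-105230705, plus strand: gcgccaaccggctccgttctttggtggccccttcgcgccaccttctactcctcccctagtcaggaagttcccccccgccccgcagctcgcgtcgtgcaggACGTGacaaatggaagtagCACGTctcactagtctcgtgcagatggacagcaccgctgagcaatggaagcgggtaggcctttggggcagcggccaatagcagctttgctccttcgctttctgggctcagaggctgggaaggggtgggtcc
Egln3, chr12:54250674-54250923, minus strand: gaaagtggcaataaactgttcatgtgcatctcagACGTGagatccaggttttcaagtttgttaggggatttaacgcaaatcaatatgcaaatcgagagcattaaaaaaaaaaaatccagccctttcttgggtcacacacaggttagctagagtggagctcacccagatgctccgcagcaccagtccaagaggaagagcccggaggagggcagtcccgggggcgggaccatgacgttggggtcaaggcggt
The core was present in the windows of all 9 members that rose and of 16 of all 20 members (80%). It was also present in 41.3% of 21770 promoters of protein-coding genes, in 56.2% of those of genes tested in tip-like cells, and in 58.9% of those higher and 46.7% of those lower in mutants. Of the targets of YAP1, TAZ and TEAD described below, 5 of the 6 that rose held it, as did 11 of all 24 members (45.8%). The windows of the 9 averaged 61.5% GC, against 57.9% for genes tested, and the part of GC content was not tested. A match is a run of letters and does not show that a factor binds there.

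Targets of YAP1, TAZ and TEAD were higher in part. Of 24 genes on the list 15 were tested, 6 rose and none fell, with a median log2 fold change of 0.91. The matricellular proteins *Ccn2* (779, 754, 186 and 264 CPM, log2 fold change 1.87, adjusted p = 3.70e-04) and *Thbs1* (1357, 824, 248 and 77.7 CPM, log2 fold change 2.77, adjusted p = 0.00165) lay apart between genotypes. *Ccn1* was at 615, 469, 170 and 311 CPM (log2 fold change 1.29, adjusted p = 0.013). Its call was lost without control replicate 1 (adjusted p = 0.0699), and in control replicate 2 a single barcode gave 85.0% of its counts. *Crim1*, a transmembrane protein that binds BMPs, was at 1223, 1155, 752 and 435 CPM (log2 fold change 1.08, adjusted p = 0.0122), and *Myof*, a membrane repair protein, at 215, 175, 125 and 51.8 CPM (log2 fold change 1.12, adjusted p = 0.0316, and 0.0729 without control replicate 2). *Dock5*, a Rac activator, was the lowest of the 6 (57.0, 45.4, 19.3 and 10.4 CPM, log2 fold change 1.76, adjusted p = 0.0309), and its call was lost without mutant replicate 1 (0.0759), control replicate 1 (0.104) or control replicate 2 (0.0857). It reached 20% of cells in mutants alone. With at least 2 *Apln* UMIs the log2 fold change of *Ccn1* was 0.48 (adjusted p = 0.6), and *Crim1* (0.119), *Myof* (0.3) and *Dock5* (0.143) also lost their calls. With equal numbers of barcodes per library the adjusted p was 0.0598 for *Ccn1*, 0.0506 for *Crim1* and 0.138 for *Myof*. DESeq2 gave 0.0763 for *Myof* and 0.163 for *Dock5*, and with doublets left out *Myof* was at 0.0749.

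In the reference ECs 12 of these genes were tested and 4 rose, with a median of 0.71. *Ccn2* (500, 655, 170 and 116 CPM, log2 fold change 2.08) and *Ccn1* (258, 268, 94.4 and 74.4 CPM, log2 fold change 1.71) were among them. Over the list the difference between both kinds of EC passed the threshold for 0 of 16 genes tested. Of all 7390 genes 52 passed it (0.704%), and a list this short cannot be set apart from that share. *Ccn1* and *Ccn2* were also higher in near-empty barcodes of mutants (624, 615, 415 and 448 CPM, and 1377, 1355, 563 and 573 CPM), and with free RNA subtracted their log2 fold changes in tip-like cells were 1.33 and 1.91. The promoter of *Ccn1* is shown because it holds the TEAD element, 105 bases before the start, with capitals for GGAATG on either strand and for a hypoxia core 49 bases before the start. An exon of an antisense gene model lies in this window.
Ccn1, chr3:145355739-145355988, minus strand: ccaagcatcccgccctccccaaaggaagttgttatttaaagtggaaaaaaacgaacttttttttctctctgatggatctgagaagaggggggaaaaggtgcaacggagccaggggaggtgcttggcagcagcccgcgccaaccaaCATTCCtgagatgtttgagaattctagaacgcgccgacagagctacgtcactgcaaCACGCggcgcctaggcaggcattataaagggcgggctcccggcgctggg
The TEAD element was present in 2 of the 6 members that rose, in 25% of the 24 members and in 12.1% of all protein-coding promoters.

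Of the genes known to mark tip cells, all 25 on the list were tested; 5 rose and 7 fell, with a median log2 fold change of 0.08. The secreted proteoglycan *Esm1* (chr13:113346021-113354632) stood at 879, 811, 180 and 93.3 CPM (log2 fold change 2.67, adjusted p = 1.67e-04). *Cxcr4*, the receptor of CXCL12, stood at 122, 147, 57.9 and 67.3 CPM (log2 fold change 1.21, adjusted p = 0.011, and 0.0974 without control replicate 1). The laminin chain *Lamb1* stood at 238, 285, 122 and 145 CPM (log2 fold change 1.08, adjusted p = 0.00717, and 0.0573 without control replicate 1). Together with *Angpt2* and the potassium channel subunit *Kcne3* these were the members that rose. *Kcne3* (62.6, 86.8, 35.4 and 25.9 CPM, log2 fold change 1.33, adjusted p = 0.0404) lost its call without mutant replicate 2 (0.131), control replicate 1 (0.14) or control replicate 2 (0.102). Of the 5, *Esm1*, *Cxcr4* and *Kcne3* reached 20% of cells in mutants alone (12.7%, 16.4% and 12.7% of control cells). The adjusted p with at least 2 *Apln* UMIs was 0.215 for *Cxcr4*, 0.121 for *Lamb1* and 0.468 for *Kcne3*, and with equal numbers of barcodes 0.0505, 0.135 and 0.127. DESeq2 gave 0.0737 for *Cxcr4* and 0.188 for *Kcne3*.

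Of the 7 tip cell genes that fell, 4 encode receptors or ligands of the VEGF system. *Kdr*, the main receptor of VEGF-A and itself high in tip cells, stood at 287, 335, 767 and 606 CPM (log2 fold change −1.06, adjusted p = 0.00499). Its co-receptor *Nrp1* stood at 351, 402, 890 and 912 CPM (log2 fold change −1.17, adjusted p = 0.00145). *Vegfc*, a ligand of VEGFR3, stood at 37.3, 25.3, 141 and 176 CPM (log2 fold change −2.24, adjusted p = 7.22e-04). In all 3, both mutant libraries were below both controls. *Ramp3*, a partner of the adrenomedullin receptor, was lower at 33.1, 37.9, 170 and 130 CPM (log2 fold change −2.01, adjusted p = 6.27e-04), as was the stretch-gated channel *Piezo2* at 143, 181, 665 and 306 CPM (log2 fold change −1.53, adjusted p = 0.00812, and 0.0816 without control replicate 1). *Flt4* (VEGFR3) and *Efnb2* completed the 7, with adjusted p of 0.0309 and 0.0354, and both calls were lost without control replicate 1 (0.496 and 0.575), that of *Efnb2* also without mutant replicate 2 (0.0878). *Vegfc* and *Ramp3* reached 20% of cells in controls alone (17.0% and 13.0% of mutant cells). Among cells with 2 or more *Apln* UMIs the adjusted p was 0.115 for *Vegfc*, 0.21 for *Piezo2*, 0.763 for *Flt4* and 0.192 for *Efnb2*, and with equal numbers of barcodes it was 0.0718 for *Kdr*, 0.0505 for *Ramp3*, 0.0874 for *Flt4* and 0.134 for *Efnb2*. DESeq2 also ended the calls of *Flt4* (0.135) and *Efnb2* (0.152).

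*Kdr* was at 219, 233, 501 and 608 CPM in the reference ECs (log2 fold change −1.23), where 22 tip cell genes were tested, 1 rose and 8 fell with a median of −0.53. The log2 fold change was significantly more positive in tip-like than in reference ECs for *Esm1*, *Trp53i11* and *Lamb1* and more negative for *Vegfc*, which was at 112, 103, 133 and 168 CPM in the reference.

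Of the wider list of VEGF, angiopoietin and PDGF genes 15 of 21 were tested, 3 rose and 6 fell (median −0.41). *Pgf* (chr12:85213409-85224564), which encodes placental growth factor, a ligand of VEGFR1, rose to 352 and 302 CPM from 25.7 and 20.7 CPM (log2 fold change 3.86, adjusted p = 6.35e-05), though it reached 20% of cells in mutants alone. *Angptl4*, a secreted lipase inhibitor, was at 145, 152, 90.0 and 57.0 CPM (log2 fold change 1.04, adjusted p = 0.0175). The receptors moved the other way: *Flt1*, which encodes VEGFR1, stood at 537, 681, 1729 and 1368 CPM (log2 fold change −1.26, adjusted p = 0.00144, and 0.0508 with at least 2 *Apln* UMIs and 0.113 with equal numbers of barcodes). *Tek*, which encodes the angiopoietin receptor TIE2, stood at 118, 125, 434 and 394 CPM (log2 fold change −1.69, adjusted p = 2.30e-04). *Pdgfb*, the ligand that draws in pericytes, was at 302, 292, 222 and 311 CPM (log2 fold change 0.27, adjusted p = 0.426). Among reference ECs 12 of these genes were tested, 1 rose and 2 fell (median −0.50), and the difference of effects passed for *Pgf*, *Vegfc* and *Tek*.

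The apelin, endothelin and adrenomedullin systems came next. Of 13 genes 9 were tested, 2 ligands rose and 3 receptor genes fell (median −0.11). The vasodilator *Adm* stood at 150, 92.6, 19.3 and 5.18 CPM (log2 fold change 3.20, adjusted p = 0.00336, and 0.0543 with at least 2 *Apln* UMIs). The apelin receptor *Aplnr* stood at 120, 134, 431 and 342 CPM (log2 fold change −1.53, adjusted p = 5.63e-04) and the adrenomedullin receptor *Calcrl* at 191, 217, 620 and 513 CPM (log2 fold change −1.39, adjusted p = 9.41e-04). Each of these was apart between genotypes. Reference ECs held *Aplnr* at 113, 138, 260 and 240 CPM. *Ednrb*, the endothelin receptor of ECs, was at 60.5, 135, 132 and 104 CPM and overlapped, and *Ece1*, the enzyme that matures endothelin, was at 272, 277, 296 and 295 CPM. *Ednra* was at 3.52, 1.15, 0 and 0 CPM, and *Apela*, the other ligand of APLNR, was at 0. The reference ECs had 1 gene higher and 1 lower of 8 tested, where 5.08% of all genes were called. The difference of effects passed for 0 of 9, and for 0.704% of all genes, so so few members cannot be set apart from that share.

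Among genes of stalk and quiescent ECs, 17 of 20 were tested, none rose and 5 fell (median −0.22). Besides *Aplnr*, *Tek* and *Flt1* these were the anticoagulant receptor *Thbd* (63.3, 79.3, 225 and 192 CPM, log2 fold change −1.47, adjusted p = 0.00129, and 0.176 with equal numbers of barcodes) and the guidance receptor *Robo1* (21.1, 24.7, 73.9 and 166 CPM, log2 fold change −2.18, adjusted p = 0.0047, and 0.066 with equal numbers of barcodes), which reached 20% of cells in controls alone. No gene of the Notch list passed (10 of 16 tested, median −0.15). Over all genes 5.86% were called, and a list this short cannot be set apart from that share. The tip cell ligand *Dll4* of the Notch list stood at 98.4, 105, 106 and 145 CPM (log2 fold change −0.18, adjusted p = 0.663). Among reference ECs 17 stalk and quiescence genes were tested, 2 rose and 1 fell (median 0.32), and the difference of effects passed for *Tek* and *Ackr1*.

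Of 24 basement membrane genes 22 were tested, 3 rose and 1 fell (median 0.40). *Col18a1*, the source of endostatin, stood at 330, 345, 174 and 145 CPM (log2 fold change 1.15, adjusted p = 0.00327), and the crosslinking enzyme *Loxl2* at 89.7, 50.4, 6.43 and 13.0 CPM (log2 fold change 3.19, adjusted p = 0.0122, and 0.144 without control replicate 1). The laminin chain *Lama5*, typical of mature vessels, fell to 40.1 and 47.1 from 103 and 93.3 CPM (log2 fold change −1.09, adjusted p = 0.0229), a call lost without mutant replicate 1 (0.0834) or control replicate 1 (0.17). *Lama4*, at 653, 738, 382 and 368 CPM (log2 fold change 0.97, adjusted p = 0.00483), was just under 2-fold. Of the integrins, *Itgav* rose (212, 179, 90.0 and 67.3 CPM, log2 fold change 1.36, adjusted p = 0.0036) and *Itga9* fell (64.7, 98.3, 212 and 187 CPM, log2 fold change −1.20, adjusted p = 0.00921, and 0.124 without control replicate 1). In the test of the difference between both kinds of EC, *Lama4* and *Lamb1* passed among 22 basement membrane genes, and 0 of 20 were called in the reference ECs, where 5.08% of all genes were. Of 13 integrins 9 were tested between genotypes and 7 were not called. *Itgav* alone of 9 integrins passed the edgeR test of the difference (1.51, adjusted p = 0.0287), as it did in 7 of 13 alternatives. *Loxl2* reached 20% of cells in mutants alone. When 2 *Apln* UMIs were required the adjusted p was 0.0806 for *Col18a1*, 0.0723 for *Lama5*, 0.0628 for *Loxl2* and 0.372 for *Itga9*, and with equal numbers of barcodes it was 0.0517 for *Col18a1*, 0.151 for *Lama5*, 0.0515 for *Itgav* and 0.17 for *Itga9*. For *Lama5* DESeq2 gave 0.147.

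Of 22 mesenchymal genes 13 were tested, 3 rose and none fell (median 0.66). Fibronectin (*Fn1*) stood at 2863, 1814, 389 and 62.2 CPM (log2 fold change 3.39, adjusted p = 0.00296). With at least 2 *Apln* UMIs its adjusted p was 0.0717, and 1 barcode gave 71.9% and 75% of its counts in the 2 control libraries. The galectin *Lgals1* stood at 809, 499, 151 and 93.3 CPM (log2 fold change 2.47, adjusted p = 5.63e-04). *Tgfbi*, a matrix protein that reached 20% of cells in mutants alone, was at 43.6, 39.7, 12.9 and 12.1 CPM (log2 fold change 1.88, adjusted p = 0.0275), and its call was lost in each fit that left out 1 library: mutant replicate 1 (0.109), mutant replicate 2 (0.0785), control replicate 1 (0.13) and control replicate 2 (0.0683). DESeq2 gave it 0.196. *Vim*, the intermediate filament of both ECs and mesenchymal cells, stood at 5958, 5628, 3291 and 4471 CPM (log2 fold change 0.66, adjusted p = 0.0137). Of 12 mesenchymal genes tested in the reference ECs none rose and 1 fell (median 0.13). There 5.08% of all genes were called, and a list this short cannot be set apart from that share. The difference passed for *Fn1* and *Lgals1*.

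Of the SRF targets 15 of 22 were tested and 1 rose, the actin-binding *Tpm1* (548, 481, 183 and 197 CPM, log2 fold change 1.53, adjusted p = 6.80e-04, and 0.079 with at least 2 *Apln* UMIs), with a median of 0.48. Of the immediate early genes 13 of 16 were tested and 1 rose, *Ier3* (333, 305, 170 and 104 CPM, log2 fold change 1.26, adjusted p = 0.00543, and 0.285 with at least 2 *Apln* UMIs), with a median of 0.38. Over all genes 2.40% rose, and a single gene per list cannot be set apart from that share. *Ier3* also rose in the reference ECs, as 1 of 3 immediate early genes there, and in the test of the difference *Tpm1* passed and *Ier3* did not. Of the NADPH oxidase and redox genes 8 of 14 were tested and 2 rose. Besides *Nox4* this was heme oxygenase 1 (*Hmox1*; 49.2, 151, 6.43 and 5.18 CPM, log2 fold change 4.15, adjusted p = 0.0253), whose call was lost without control replicate 1 (0.208) or control replicate 2 (0.071) and with at least 2 *Apln* UMIs (0.136). Both reached 20% of cells in mutants alone (14.5% and 5.45% of control cells). None of the 15 tested protease genes, of the 17 tested genes of TGFβ and BMP signalling or of the 4 tested cell cycle genes was called. Over all genes 5.86% were called, and lists this short cannot be set apart from that share. The cycle gene *Top2a* was at 81.6, 37.4, 9.64 and 62.2 CPM.

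**Figure D3:**
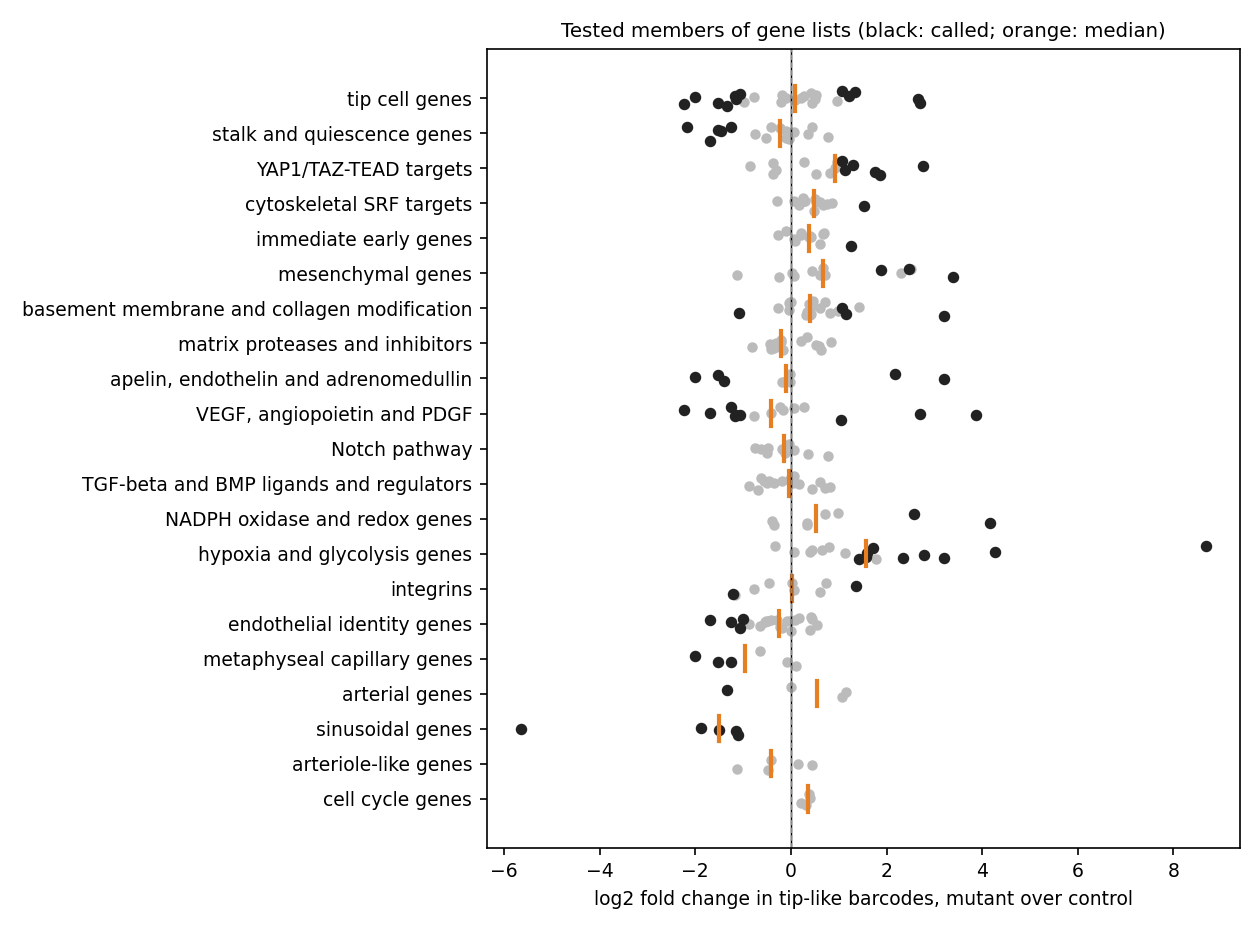
Log2 fold change between mutant and control tip-like cells (x axis) for the tested members of the gene lists, markers of other lineages not shown (y axis). Each point is a gene, black where it was called, and orange lines are list medians. Of the lists shown, hypoxia and glycolysis genes have the highest median (1.58) and sinusoidal genes the lowest (−1.51). Both medians take in genes that could enter only where they are high. These were *Adm*, *Bnip3*, *Egln3* and *Slc16a3* through mutants and *Mrc1*, *Maf* and *Gpr182* through controls, so the filter itself pushes both medians outward. The point of *Slc16a3* is a fitted value against controls at 0 and no bound.

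All 22 genes of endothelial identity were tested. None rose and 4 fell, among them *Clec14a* (91.4, 109, 228 and 197 CPM, log2 fold change −1.01, adjusted p = 0.00641), whose call was lost without mutant replicate 1 (0.0577) or control replicate 1 (0.0929). In the reference 1 of 22 rose and 1 fell, where 5.08% of all genes were called, and *Tek* and *Clec14a* passed the test of the difference. Of 7 sinusoidal genes 5 were tested and called lower, but *Mrc1*, *Maf* and *Gpr182* reached 20% of cells in controls alone (1.30%, 17.0% and 10.0% of mutant cells) and so could enter only where they are high. Without control replicate 1, 4 of the 5 calls ended, among them *Flt4* (0.496) and the transcription factor *Maf* (log2 fold change −1.51, adjusted p = 0.041, and 0.509 without control replicate 1 and 0.104 without mutant replicate 2). *Maf* also lost its call with at least 2 *Apln* UMIs (0.692), equal numbers of barcodes (0.247), DESeq2 (0.143), doublets left out (0.0747) and without other-lineage barcodes (0.0802). The scavenger receptor *Stab1* was at 86.5, 120, 238 and 238 CPM (log2 fold change −1.11, adjusted p = 0.00652, and 0.0528 without mutant replicate 1 and 0.072 without control replicate 1), and the mannose receptor *Mrc1* at 1.41, 0.575, 61.1 and 51.8 CPM (log2 fold change −5.64, adjusted p = 1.37e-04). *Gpr182*, an atypical chemokine receptor, was at 8.44, 11.5, 35.4 and 46.6 CPM (log2 fold change −1.88, adjusted p = 0.0175), and leaving out any 1 of the 4 libraries ended its call (0.242, 0.178, 0.0827 and 0.0799), as did DESeq2 (0.0866) and 2 or more *Apln* UMIs (0.146). In the reference ECs 3 of these genes could be tested and 2 fell, *Flt4* and *Maf* (median −1.46). The difference between both kinds of EC passed for 0 of 5 genes, and for 0.704% of all genes, so a list this short cannot be set apart from that share. The cells were chosen without *Stab2* in both genotypes. Of the metaphyseal capillary genes 6 of 7 were tested and 3 fell (median −0.96). Of 7 in the reference ECs 1 fell, where 5.08% of all genes were called, and the difference passed for none. So few members cannot be set apart from these shares. Of the arteriole-like genes all 5 were tested and none passed, against 5.86% of all genes, which 5 genes cannot be set apart from. Of these 5, 4 rose in the reference ECs, and the test of the difference passed for 1 of them, *Ackr1*. With at least 2 *Apln* UMIs the adjusted p was 0.0725 for *Clec14a* and 0.244 for *Stab1*, and with equal numbers of barcodes 0.161 and 0.0814.

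The named genes with the largest increases, apart from those above, included others outside the lists. *Mfap3l*, a membrane protein, stood at 132, 131, 16.1 and 5.18 CPM (log2 fold change 3.54, adjusted p = 3.59e-04) and *Slc35f1*, a putative transporter, at 160, 158, 22.5 and 5.18 CPM (log2 fold change 3.41, adjusted p = 3.59e-04). Both were apart between genotypes, which the rule that named them required. Their control counts were too few to reach the share of cells needed for a test, so they could enter only through mutants, where they are high. Over 17 alternatives, fits without 1 library among them, their lowest log2 fold changes were 2.58 for *Mfap3l* and 2.47 for *Slc35f1*. The largest decreases were, after *Mrc1*, the adhesion molecule *Nrcam* (0.703, 0.91, 25.7 and 98.4 CPM, log2 fold change −5.56, adjusted p = 0.00171) and the splicing factor *Rbfox1* (10.5, 3.45, 148 and 155 CPM, log2 fold change −4.38, adjusted p = 1.37e-04). *Npnt*, an integrin ligand of the matrix, stood at 12.0, 9.20, 164 and 124 CPM (log2 fold change −3.71, adjusted p = 1.37e-04). The transcription factor *Sox11* stood at 4.22, 4.60, 86.8 and 20.7 CPM (log2 fold change −3.65, adjusted p = 0.0031), *Fcer1g*, a signalling chain of Fc receptors, at 30.9, 25.3, 186 and 212 CPM (log2 fold change −2.73, adjusted p = 1.37e-04), and *Btnl9*, a butyrophilin-like membrane protein, at 33.1, 26.4, 222 and 187 CPM (−2.71). *Trerf1*, *Ppfia2*, *Sntb1*, *Ankrd33b* and *Enpp6* made up the rest of the 12, with log2 fold changes of −3.30, −3.15, −3.06, −2.54 and −2.51. The mutant counts of *Mrc1*, *Nrcam*, *Rbfox1*, *Npnt* and *Sox11* were too few to reach the share of cells needed for a test. These genes could thus enter only through controls, where they are high. Their control levels rest on 32 and 23 cells, and the part of single barcodes in them is not given. Among cells with at least 2 *Apln* UMIs the calls of *Sntb1* (−1.75, adjusted p = 0.162) and *Ankrd33b* (−1.85, adjusted p = 0.0839) ended, and with equal numbers of barcodes that of *Ppfia2* (−2.42, adjusted p = 0.0792).

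**Figure D4:**
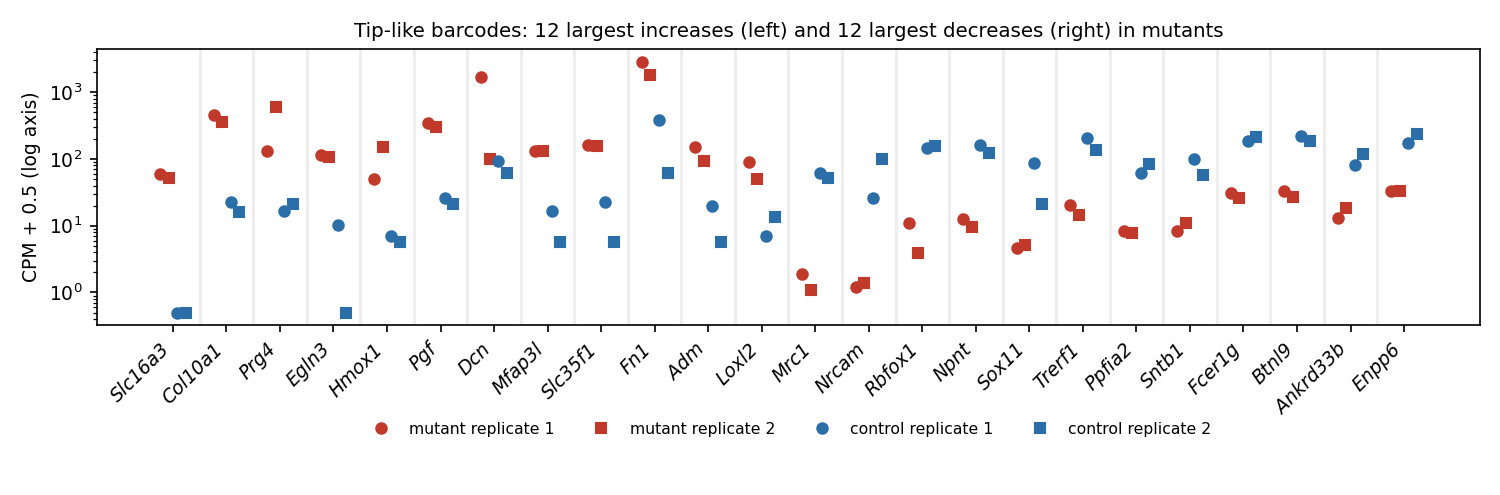
The 12 largest named increases and 12 largest decreases between genotypes in tip-like cells. The y axis is CPM plus 0.5 on a log scale and each point is 1 library. Mutant libraries lie on one side of both controls for every gene by the rule that named them; *Dcn* has 1 mutant library at 1719 CPM and the other at 100 CPM.

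*Col10a1*, *Prg4* and *Dcn*, among the largest increases, are genes of other bone cells. For *Col10a1* and *Prg4*, most of the mutant counts came from 1 barcode per library. *Col10a1*, the collagen of hypertrophic chondrocytes, stood at 454, 359, 22.5 and 15.5 CPM (log2 fold change 4.44, adjusted p = 6.35e-05), of which 1 barcode gave 66.8% and 67.5% in the mutants. Its call was lost with doublets left out (adjusted p = 0.113) and without the barcodes of 1% or more other-lineage UMIs (0.0589), and near-empty barcodes held it at 3874, 3872, 1442 and 1353 CPM. *Prg4*, lubricin of the joint surface, stood at 133, 600, 16.1 and 20.7 CPM (log2 fold change 4.44, adjusted p = 0.0085), with 84.1% and 94.5% of the mutant counts from 1 barcode each, and was not called without control replicate 1 (0.13), with doublets left out (log2 fold change 2.45, adjusted p = 0.171) or with at least 2 *Apln* UMIs (0.0709). *Dcn*, decorin of fibroblasts, stood at 1719, 100, 93.2 and 62.2 CPM (log2 fold change 3.60, adjusted p = 0.0493), and its call was lost without mutant replicate 1 (0.537), control replicate 1 (0.235) or control replicate 2 (0.142). Without mutant replicate 1 its log2 fold change was 0.43. The call was also lost without the control barcodes that held Cre-ERT2 (log2 fold change 3.54, adjusted p = 0.0698) and without the barcodes of 1% or more other-lineage UMIs (3.59, 0.139). The same held with at least 2 *Apln* UMIs (4.27, 0.122), equal numbers of barcodes (5.30, 0.0649) and DESeq2 (3.64, 0.223). Other size factors (3.60, 0.0531) and the stricter barcode filter (3.63, 0.0534) ended it too. In these fits the fold thus stayed about as large or grew, while the adjusted p passed 0.05.

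Markers of other lineages were summed in the tip-like cells of each library. Osteoblast markers summed to 7185, 311, 825 and 1021 CPM, and 1 barcode gave 95.6% of the sum in mutant replicate 1. Chondrocyte markers summed to 2077, 3127, 508 and 10957 CPM, and 1 barcode gave 98.3% of the sum in control replicate 2. Neither sum was higher in both libraries of a genotype. The median of the osteoblast markers per tip-like cell, however, was 140, 149, 571 and 913 CPM, lower in both mutants. Near-empty barcodes held these markers at 17746, 14635, 44042 and 45526 CPM. Erythroid markers also moved with genotype, with sums of 447, 580, 186 and 207 CPM. Near-empty barcodes held them at 53668, 53560, 13972 and 14062 CPM. *Hbb-bs* (255, 342, 79.8 and 117 CPM, log2 fold change 1.75, adjusted p = 0.00146) and *Hba-a2* (62.9, 84.3, 14.5 and 28.5 CPM, log2 fold change 1.97, adjusted p = 0.017) were called by edgeR. Without control replicate 1 the log2 fold change of *Hba-a2* was 1.36 and its call was lost. The call of *Hba-a2* was also lost with at least 2 *Apln* UMIs (0.0883), equal numbers of barcodes (0.11) and DESeq2 (0.0549). *Hbb-bs* and *Hba-a2* were absent from the genes tested after free RNA was subtracted. Reticular stromal markers summed to 945, 1015, 1665 and 1513 CPM, lower in both mutant libraries, and 1 barcode gave 14.4%, 11.3%, 49.4% and 50.3% of these sums. Near-empty barcodes held them at 1833, 2066, 4466 and 4233 CPM. The sum of the hematopoietic and mast cell markers, to which most of the listed markers gave no count, was also lower in both mutants, at 541, 557, 723 and 658 CPM. This does not by itself show a difference in hematopoietic cells. Smooth muscle and pericyte markers summed to 148, 103, 141 and 181 CPM. Among the latter *Abcc9* was lower in mutants (22.5, 27.0, 73.9 and 88.1 CPM, log2 fold change −1.58, adjusted p = 0.00812, and 0.0556 without control replicate 1 and 0.162 with at least 2 *Apln* UMIs). Fibroblast markers summed to 62.6 and 11.5 CPM in mutants and 0 in both controls, and 1 barcode gave 95.5% of the sum in mutant replicate 1. Osteoclast and megakaryocyte markers summed to at most 15.5 and 57.9 CPM. The part of the lists that moved with genotype in the other results was not tested. Without the 6, 8, 2 and 1 tip-like barcodes that held 1% or more of other-lineage UMIs, a check chosen after the data were seen, 165 genes were called higher and 255 lower.

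The genotype effect in tip-like cells was compared with that in reference ECs of the same libraries. The make-up of the reference ECs also differed between genotypes. Their arteriole-like genes summed to 2817, 2532, 1152 and 1194 CPM, against 470, 751, 968 and 503 CPM in tip-like cells. A difference of effects can therefore come from either kind of EC, and the part of make-up was not tested. Of 7390 genes tested, 27 (0.365%) had a more positive log2 fold change in tip-like than in reference ECs and 25 (0.338%) a more negative one at an adjusted p of at most 0.05 by edgeR with the library as a block. *Pgf* led these: in the reference ECs it stood at 20.4, 16.5, 20.2 and 32.9 CPM, and the effects differed by 4.26 on the log2 scale (adjusted p = 0.00254). *Mthfd1l*, a mitochondrial enzyme of one-carbon metabolism, stood at 78.8, 89.1, 9.64 and 10.4 CPM in tip-like cells and at 15.1, 21.0, 27.7 and 32.2 CPM in the reference (difference of effects 3.79, adjusted p = 0.0146). Among tip-like cells it reached 20% in mutants alone, so it could enter only where it is high. *Esm1* stood at 48.8, 51.0, 32.2 and 70.9 CPM in the reference (difference of effects 2.57, adjusted p = 0.0458).

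*Fn1* was already high in the reference ECs, at 1355, 538, 683 and 243 CPM, where the genotypes overlapped (difference of effects 2.67, adjusted p = 0.0146). *Lgals1* was at 140, 174, 148 and 117 CPM there (difference of effects 2.16, adjusted p = 0.026). *Adam12*, a metalloprotease, differed in another way: it held at 362, 421, 331 and 194 CPM in tip-like cells but was lower in mutant reference ECs (65.6, 77.2, 238 and 169 CPM, difference of effects 2.11, adjusted p = 0.0052). *Maged1* (difference of effects 2.46) and *Slc22a23* (3.39, adjusted p = 0.0241) completed the 8 largest positive differences.

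Among negative differences, *Slco2a1*, a prostaglandin transporter, fell in tip-like cells (70.3, 66.1, 395 and 342 CPM) and not in the reference (254, 273, 202 and 233 CPM), a difference of −2.70 (adjusted p = 0.00254). *Ssbp2* was at 20.4, 17.8, 70.7 and 98.4 CPM against 103, 99.0, 72.7 and 57.3 CPM (difference of effects −2.70, adjusted p = 0.0146). *Slco2a1* kept its call in tip-like cells under every alternative, whereas that of *Ssbp2* was lost with at least 2 *Apln* UMIs (log2 fold change −0.95, adjusted p = 0.434) and with equal numbers of barcodes (−1.61, adjusted p = 0.104). *Ackr1*, the atypical chemokine receptor of venules, was at 46.3, 75.3, 90.0 and 82.9 CPM in tip-like cells but rose in the reference, to 323 and 322 from 81.7 and 76.6 CPM (difference of effects −2.52). *Fabp5*, a fatty acid chaperone, was at 713, 632, 415 and 539 CPM in tip-like cells and at 872, 1129, 164 and 213 CPM in the reference (difference of effects −1.88, adjusted p = 0.0146). *Npnt* fell in both, in the reference from 66.7 and 72.3 to 25.7 and 27.7 CPM, and the difference of effects was −2.40 (adjusted p = 0.026). *Aebp1* (difference of effects −2.27), *Ctnnal1* (−2.36) and *Wwp2* (−2.0) were the others. Counts of such differences were unstable: they were 3 and 2 without mutant replicate 1 and 11 and 3 without mutant replicate 2.

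*Tek*, described above, was at 266, 262, 330 and 366 CPM in the reference ECs, and its difference of −1.35 also passed (adjusted p = 0.0222).

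**Figure D5:**
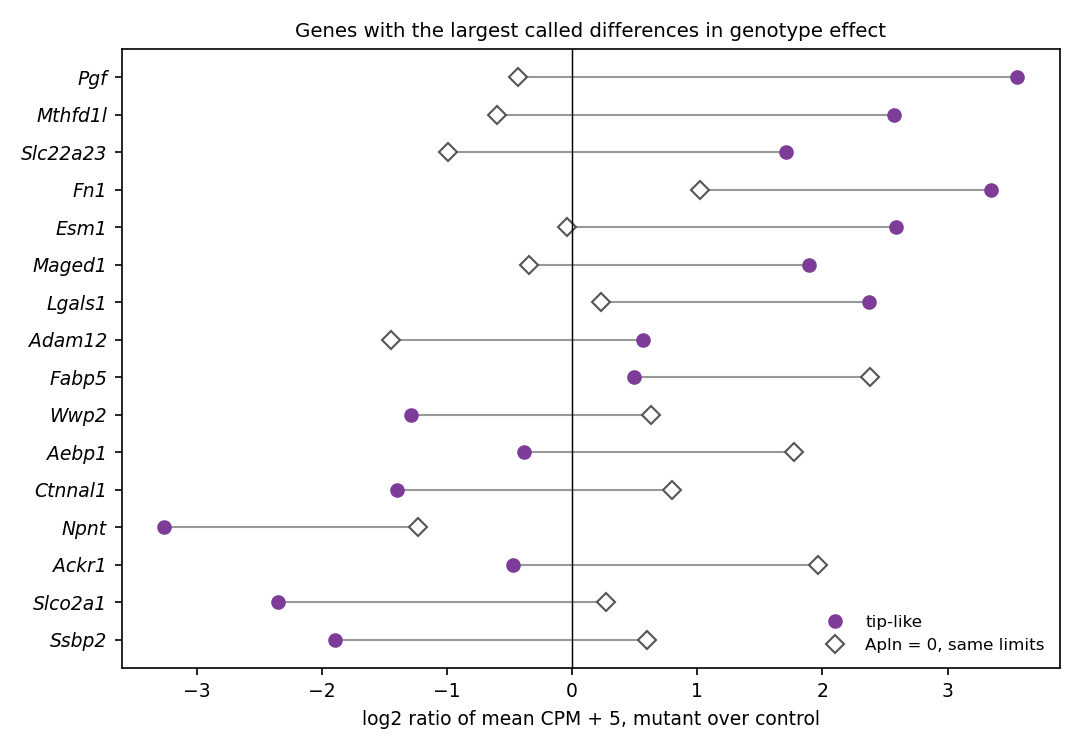
Effect of genotype in tip-like cells and in reference ECs for the 16 genes with the largest tested differences. Each gene has the log2 ratio of the mean CPM plus 5 of mutants over controls in both kinds of EC. The tip-like point lies to the right of the reference point for *Pgf* (3.56 and −0.43) and the other genes with a positive difference, and to its left for *Slco2a1* (−2.35 and 0.27) and the other genes with a negative difference.

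Within each library, tip-like cells were set beside the reference ECs as a description, since *Apln* split them. With 5 CPM added to both sides, 11 of 4154 genes (0.265%) were at least 2-fold higher in tip-like cells in all 4 libraries and 16 (0.385%) at least 2-fold lower. *Nox4* was 2.40 to 18.6 times and *Kit* 2.31 to 10.2 times the reference level. *Cxcr4* was 2.66 to 7.05 times and the actin-bundling *Fscn1* of filopodia 2.32 to 4.21 times the reference level. Of all 25 genes on the list of tip cell genes, only 2 were among the 11, *Cxcr4* and *Trp53i11*. Over the list, the median of the lowest fold per gene was 1.15. *Prnd* (2.97 to 7.64) and *Prn* (2.51 to 7.02), whose loci overlap so that reads can be split between them, the long noncoding RNA *Morrbid* (2.27 to 6.14), *Trp53i11* (2.33 to 7.30), *Fam155a* (3.64 to 11.6) and *Tubb6* (2.02 to 2.54) were also among the 11. *Angpt2* missed this list because of control replicate 2, where its ratio was 1.48.

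Between genotypes 10 of these 11 genes were tested, 4 rose and none fell. *Morrbid* stood at 241, 251, 112 and 82.9 CPM (log2 fold change 1.38, adjusted p = 0.00187, and 0.0543 with at least 2 *Apln* UMIs). *Fscn1* (299, 322, 248 and 207 CPM, log2 fold change 0.52, adjusted p = 0.0909) missed the threshold, and *Trp53i11* (425, 617, 289 and 275 CPM, log2 fold change 0.97, adjusted p = 0.0172) was short of 2-fold. In the control libraries 1 barcode gave 82.9% and 96.8% of *Fam155a*. Lower in tip-like cells in all 4 libraries were genes of osteoblasts and matrix such as *Spp1* (0.0973 to 0.309 times the reference level), *Ibsp* (0.0963 to 0.427) and *Tnc* (0.101 to 0.400), the proprotein convertase *Pcsk5* (0.0807 to 0.301) and the heparan sulfatase *Sulf1* (0.0717 to 0.232). In the reference ECs 1 barcode per library gave 66.7%, 78.5%, 35.9% and 64.5% of the summed osteoblast markers.

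*Apln* UMIs were also found outside the endothelium, mostly in mutants. Among all endothelial barcodes 26.1%, 29.1%, 8.80% and 7.54% held at least 1 UMI. Among all other kept barcodes the shares were 7.63% and 6.86% in mutants and 0.265% and 0.233% in controls, at median depths of 8346, 8017, 7823 and 8074 UMIs against 7326, 7009, 6175 and 5894 in endothelial barcodes. The shares differed between other cell types: chondrocyte barcodes held *Apln* in 11.8%, 9.51%, 0.423% and 0.339%, osteoblast barcodes in 4.56%, 4.69%, 0.304% and 0.278%, and reticular stromal barcodes in 1.64%, 1.75%, 0.278% and 0.225%. Chondrocyte barcodes were deeper, and after thinning to 2000 UMIs they held *Apln* in 4.10%, 2.87%, 0% and 0.204%. Near-empty barcodes held *Apln* at 44.6, 55.1, 2.37 and 2.49 CPM, so free *Apln* RNA was also higher in mutants. Its part in the tip-like cells with 1 UMI was not tested. Requiring at least 2 UMIs left 14.8% ± 1.79 (SD, n = 2) of mutant and 1.55% ± 0.498 (SD, n = 2) of control endothelial barcodes as tip-like.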

How the data were processed

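The authors trimmed reads with cutadapt 3.5, mapped them with STARsolo 2.7.10a to the GRCm39 genome with GENCODE genes, to which CreERT2 and mTmG sequences were added, and deposited unfiltered expected counts of UMIs in exons and introns, in which reads that fit more than 1 gene were divided by an EM algorithm. The deposited expected counts were rounded after summing over the barcodes of a class in each library, and genotypes were compared over libraries with edgeR 4.0.16 (quasi-likelihood test, TMM; limma 3.58.1, R 4.3.3) and Benjamini-Hochberg adjustment over all genes tested. A call needed an adjusted p of at most 0.05 and, except for differences between kinds of EC, an absolute log2 fold change of at least 1. Genes passed edgeR's filter and were present in at least 20% of the barcodes of either genotype. Barcodes were processed with Python 3.11.15, numpy 2.4.6, scipy 1.17.1, pandas 2.3.3 and scanpy 1.11.5. Doublets were scored with an expected rate of 0.8% per 1000 barcodes and were left in. Tip-like cells and reference ECs were set side by side per library with 5 CPM added to both, a value set after the data were seen, and floors are 3 counts over a group.

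Named genes were the markers, the genes of the rule, *Lats2*, *Lats1* and Cre-ERT2, the 12 largest called changes per direction at 50 CPM or more with genotypes apart, up to 15 genes per direction leading in tip-like or reference ECs, the 8 largest called differences per direction, and in each list up to 5 called members and any at 200 CPM or more. Genes singled out beyond this were chosen after their values were seen. The members and lists were chosen with earlier results of these data known. In the list of hypoxia genes, *Aldoa* was not matched because 2 features share its symbol. Gene starts and positions are from GENCODE M39 on GRCm39.

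Alternatives were other size factors, no gene filter, DESeq2 1.42.0, a replicate block, at least 2 *Apln* UMIs, stricter barcode filters (2000 UMIs and 10% mitochondrial; a complexity of 0.8), no doublets, equal numbers of barcodes, free RNA subtracted, all endothelial barcodes without *Apln* as reference, depths of 3000 to 12000 UMIs and each library left out. Leaving out barcodes of 1% or more other-lineage UMIs, control barcodes with Cre-ERT2 and the barcode of highest *Apln* in each library was added after the data were seen. Fits were tested on simulated data. Figures were drawn with matplotlib 3.10.9. Some items are not reported here.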

Additional observations from a re-analysis of the deposited data

Results flagged for a closer look

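*Apln* UMIs were found in barcodes outside the endothelium, which enter no comparison of tip-like cells: in mutants on average 10.7% of chondrocyte, 4.63% of osteoblast and 1.69% of reticular stromal barcodes held one, against 0.381%, 0.291% and 0.251% in controls. Near-empty barcodes held *Apln* at 49.8 CPM ± 7.37 (SD, n = 2) in mutants and 2.43 CPM ± 0.0872 (SD, n = 2) in controls.

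For 16 genes the effect of genotype in tip-like cells differed from that in the reference ECs by edgeR's test of the difference itself, and these are the 8 largest in each direction. The signed difference in log2 fold change, tip-like minus reference, was 4.26 for *Pgf*, 3.79 for *Mthfd1l*, 3.39 for *Slc22a23*, 2.67 for *Fn1*, 2.57 for *Esm1*, 2.46 for *Maged1*, 2.16 for *Lgals1* and 2.11 for *Adam12*. It was −2.70 for *Ssbp2*, −2.70 for *Slco2a1*, −2.52 for *Ackr1*, −2.40 for *Npnt*, −2.36 for *Ctnnal1*, −2.27 for *Aebp1*, −2.0 for *Wwp2* and −1.88 for *Fabp5*. Under 13 alternatives each kept its direction in all 13, except *Pgf* in 12, and passed an adjusted p of 0.05 in 7 to 11 of them. *Pgf* and *Slco2a1* passed in 11, *Ackr1* in 10 and *Esm1* in 7.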

How the results depend on the processing

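The share of tip-like cells was higher in mutants under each of the alternatives, with differences of 13.9 to 16.7 percentage points when 1 library was left out. Of 81 named genes called between genotypes, 32 kept their call under every alternative, 26 lost it in at least 1 fit without a library, 39 with at least 2 *Apln* UMIs, 16 with DESeq2 and 26 with equal numbers of barcodes. Between the replicate 1 libraries of both genotypes, deviations from the group means had r = −0.04 over 7295 genes. On sums of so few cells this value cannot exclude a pairing by replicate number. With the replicate block 230 genes were higher and 307 lower in tip-like cells. The control sums rest on 32 and 23 cells.

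Against 175 higher and 252 lower genes, DESeq2 called 102 and 153, at least 2 *Apln* UMIs 55 and 70, and equal numbers of barcodes 80 and 79; without a gene filter 446 were higher. Leaving out 1 library gave 119 to 182 higher and 125 to 231 lower genes, and 138 to 163 and 135 to 150 in the reference ECs. Of differences between both kinds of EC (27 more positive and 25 more negative in tip-like cells), 0 and 0 passed without a gene filter, where 1145 genes had an unadjusted p under 0.05, and 2 and 0 with equal numbers of barcodes, where 359 did. There were 97 and 125 against all endothelial barcodes without *Apln*, 11 positive with at least 2 *Apln* UMIs, 49 and 48 without control barcodes that held Cre-ERT2, 45 negative without other-lineage barcodes, 43 negative without the barcodes of highest *Apln*, and 3 to 37 and 2 to 64 with 1 library left out, the most negative ones without control replicate 2. Of genes 2-fold apart between tip-like and reference ECs (11 higher and 16 lower), there were 24 and 60 against all endothelial barcodes without *Apln*, 29 and 42 with at least 2 *Apln* UMIs, 53 lower at depths of 3000 to 12000 UMIs, 6 higher without control barcodes with Cre-ERT2, 7 higher without the barcodes of highest *Apln*, and 11 to 29 and 24 to 51 with 1 library left out.

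Among named genes, signs turned for these genes of osteoblasts and chondrocytes. The log2 fold change of *Bglap* became −3.19 with equal numbers of barcodes, −2.43 without other-lineage barcodes and −3.11 without mutant replicate 1, and that of *Bglap2* −2.14, −1.87 and −2.42. *Col1a1* became −1.93 and *Col1a2* −1.01 without mutant replicate 1, and *Ibsp* −2.25 without other-lineage barcodes. With 1 library left out the highest values were 3.5 for *Col1a1*, 3.25 for *Col1a2*, 3.34 for *Bglap* and 3.11 for *Bglap2*. With at least 2 *Apln* UMIs *Col2a1* became 4.31 and *Col11a1* 2.91, and without control replicate 2 they became 2.64 and 1.11, against lowest values of −2.06 and −2.60 with 1 library left out. The cause was not tested for the other shifts.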
